A study of Mus musculus with 12 samples.

Results

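The circadian clock genes Clock, Arntl, Per2, Per3, Cry1, Cry2, Nr1d1, Nr1d2, Dbp and Bhlhe40 were followed through adipogenesis in control cells and in cells with a knockdown of Fto. They were taken by symbol from the table of transcript abundance, in which each symbol occurred once, and they are 10 of its 55487 genes. Arntl is the gene of the protein BMAL1. The study sequenced RNA of the mouse fibroblast line 3T3-L1, which turns adipocyte-like under hormonal induction, in 12 libraries. Cells of the control line (shScram) carried a control hairpin, and cells of the knockdown line (shFto) carried a hairpin against Fto, the gene of an RNA demethylase that removes N6-methyladenosine. Both hairpins were delivered by lentivirus with puromycin selection, and the sources used here list more than 1 Fto hairpin without saying which was present in these libraries. Cells of both lines were collected as preadipocytes before induction (Pre), at mitotic clonal expansion (MCE) after induction with IBMX, dexamethasone and insulin, and as mature adipocytes (Diff) after further culture with insulin. Each of the 6 groups had 2 libraries.

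Nothing in the labels says that the libraries of a group came from separate cultures, so p-values measure only the spread between these libraries, which may be technical. The title of replicate 1 of shScram at Diff names the control hairpin but its entry for treatment gives a knockdown of Fto; grouping went by the title. The hour of collection is not given in the sources used here, and each group was collected once, so the phase of a rhythm and its mean level cannot be told apart.

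The mammalian clock is a feedback loop of transcription. CLOCK and BMAL1 bind E-boxes and activate the period and cryptochrome genes, whose proteins return to the nucleus and repress CLOCK and BMAL1. In a second loop the same pair activates Nr1d1 and Nr1d2, which encode the haem-binding nuclear receptors REV-ERB alpha and beta, and these repress Arntl through ROR elements. Dbp and Bhlhe40 are also targets of the pair: DBP activates genes with a D-box, and BHLHE40 (DEC1) competes at E-boxes. Glucocorticoids such as dexamethasone are known to reset this loop in cultured fibroblasts, and REV-ERB alpha is known to take part in adipogenesis.

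Expression was given as TPM, a share of all transcripts corrected for gene length, so that levels of different genes can be compared. TPM keeps no sequencing depth, and the depth behind each value is unknown. Fto lay between 52.7 and 73.5 TPM in the 6 shScram libraries and between 5.51 and 7.47 TPM in the 6 shFto libraries, the library with conflicting labels being at 73.5 TPM. Replicate 1 of shScram at Pre stood apart, with 14.5% of its TPM from mitochondrial genes against 4.58% to 9.17% in the other libraries, and its correlation with replicate 2 across genes was 0.939 against 0.990 to 0.993 for the other pairs. All 6 fibroblast markers were at 1 TPM or more in every library, and macrophage and endothelial markers summed to at most 4.01 and 0.651 TPM, with Adgre1 and Kdr at 0 in all libraries. The sum of 8 adipocyte markers reached 1515 to 1524 TPM in shScram cells at Diff but 417 to 456 TPM in shFto cells, although both carry the label of mature adipocytes. In such bulk samples fewer cells of a type and less RNA per cell cannot be told apart.

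The genes are spread over 9 chromosomes of GRCm38. Clock lies on chr5:76209868-76304792, Per2 on chr1:91415982-91459324, Per3 on chr4:151003652-151044665, Cry1 on chr10:85131700-85185064, Cry2 on chr2:92403646-92434043, Nr1d1 on chr11:98767932-98775333 and Nr1d2 on chr14:18204054-18239127, all on the minus strand. Arntl on chr7:113207465-113314126, Dbp on chr7:45705088-45710203 and Bhlhe40 on chr6:108660629-108666925 lie on the plus strand. Some of them share exonic bases with a gene on the opposite strand, and whether counting used strand is not given in the sources used here, so their values are uncertain to that extent. Dbp shares 539 bases (18.0% of its exonic length) with Sphk2, Nr1d1 shares 263 bases (8.55%) with Thra, and Cry2, Bhlhe40 and Arntl share 4.67%, 2.51% and 0.44% with noncoding genes.

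Promoter windows from 250 bases before to 50 bases after each transcription start were available from RefSeq (GRCm38.p6) for 8 of the 10 genes, all but Per2 and Bhlhe40. They were searched on both strands for the letters of the elements through which the clock proteins act, because these link the genes to each other. The motifs were the E-box (CACGTG), the E-prime box (CACGTT), the D-box (TTATGTAA or TTACGTAA) and the core of the ROR element (TAGGTCA or TGGGTCA), and no site of a clock gene matched more than 1 of them. Of all 32851 promoter windows, 7.15% held an E-box, 4.68% an E-prime box, 1.06% a D-box and 6.45% a ROR core. The stretches of the 5 genes with a match follow, 5′ to 3′ on the strand of the gene, with 12 bases on each side and the matching letters in capitals.
Arntl: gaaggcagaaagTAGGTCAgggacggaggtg
Per3: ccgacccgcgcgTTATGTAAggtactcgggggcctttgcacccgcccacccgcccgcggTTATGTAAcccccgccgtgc
Cry1: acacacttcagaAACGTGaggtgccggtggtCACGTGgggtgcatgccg
Cry2: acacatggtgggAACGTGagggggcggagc
Nr1d1: cgcacagatctcAACGTGccggctgctgga
The Arntl stretch (chr7:113207529-113207559, plus strand) holds a ROR core that begins 30 bases after a start. The Per3 stretch (chr4:151044804-151044882, minus strand) holds a pair of D-boxes, 205 and 158 bases before the start. Cry1 (chr10:85185097-85185145, minus strand) has an E-prime box and an E-box 79 and 60 bases before its start. Cry2 (chr2:92434218-92434247, minus strand) and Nr1d1 (chr11:98775388-98775417, minus strand) have an E-prime box 166 and 28 bases before theirs, AACGTG being the same site read on the other strand. The windows of Clock, Nr1d2 and Dbp held none of these letters, which says nothing of elements elsewhere. A match is a description of the letters and not a binding site.

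Across the 12 libraries the genes differed widely in how much they moved. The highest group mean was 14.4 times the lowest for Dbp, 13.2 times for Per3, 7.48 times for Nr1d2, 6.67 times for Nr1d1 and 5.29 times for Per2. It was 4.37 times for Bhlhe40, 2.28 times for Cry2, 1.94 times for Arntl, 1.66 times for Cry1 and 1.45 times for Clock. Bhlhe40 was the most abundant clock gene in all 12 libraries. The plot of TPM by stage shows a V shape in shFto cells for Nr1d1, Nr1d2, Dbp, Per3 and Cry2, with the low point at MCE. In shScram cells Per3 had this shape as well, and Dbp was also lowest at MCE.

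**Figure D1:**
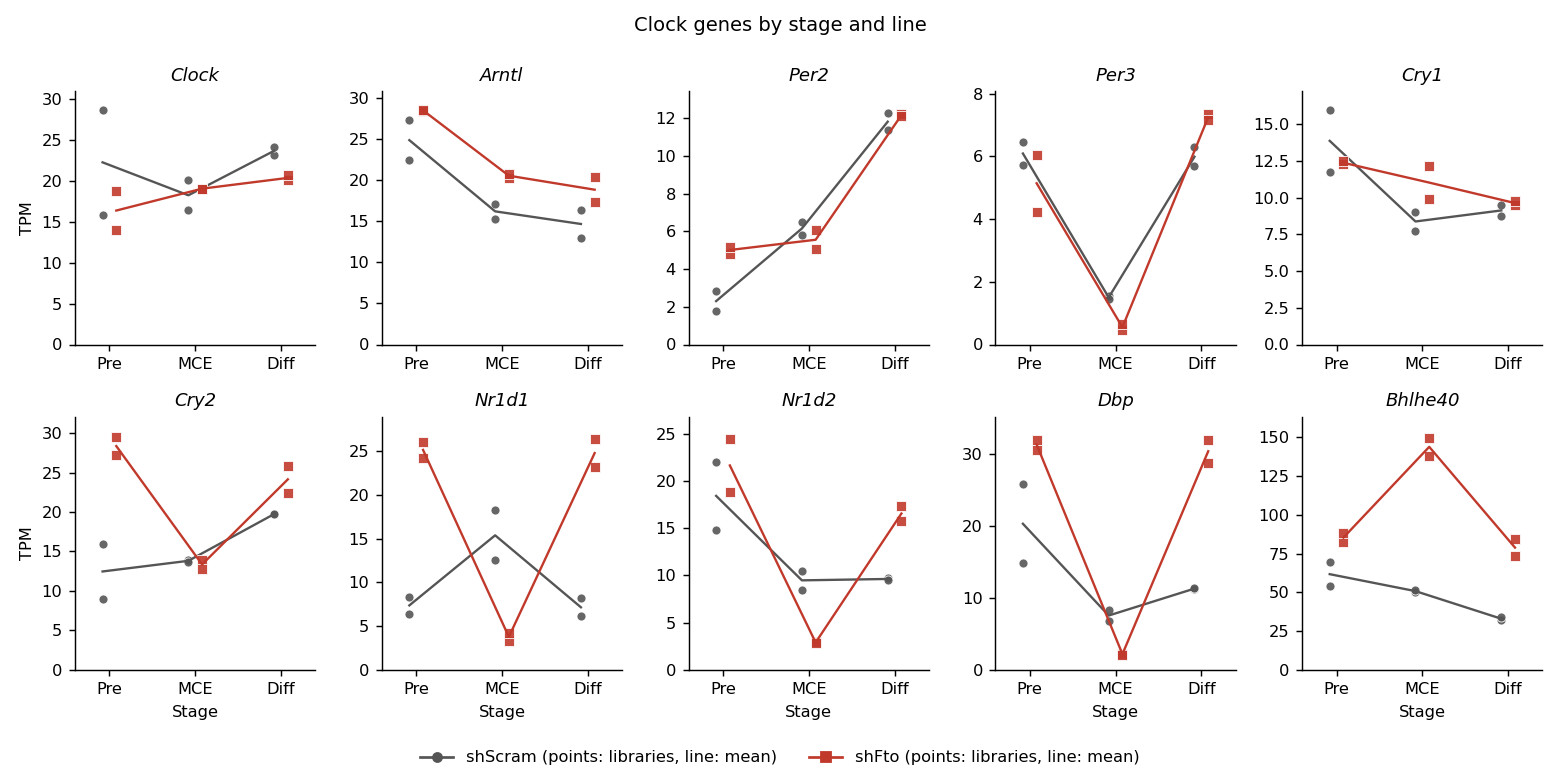
TPM (y axis, linear from 0, a scale of its own in each panel) of the 10 clock genes at the Pre, MCE and Diff stages (x axis) in shScram (grey circles) and shFto cells (red squares). Points are libraries, 2 per group, and lines join the group means; in shFto cells Dbp fell from 31.3 TPM at Pre to 2.18 TPM at MCE and stood at 30.4 TPM at Diff, while Bhlhe40 was highest at MCE with 143.9 TPM.

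Of the activators, Clock encodes the partner of BMAL1 with acetyltransferase activity. It lay between 13.9 and 28.7 TPM over all libraries, and both of these extremes were in preadipocytes. In shScram preadipocytes its replicates were at 28.7 and 15.8 TPM, a gap wider than any between the means of the groups. Its order was shScram Diff, shScram Pre, shFto Diff, shFto MCE, shScram MCE and shFto Pre from high to low, and the libraries of 4 of the 5 neighbouring pairs overlapped.

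Arntl was at 27.3 and 22.4 TPM in shScram preadipocytes, at 17.1 and 15.2 TPM at MCE and at 12.9 and 16.4 TPM at Diff. In shFto cells it was at 28.4 and 28.5 TPM, then at 20.3 and 20.7 TPM, then at 17.3 and 20.3 TPM. Both lines had their highest values before induction, and the shFto libraries lay above the shScram libraries at each stage without overlap. In the order of the means, shFto Pre and shScram Pre came first and the shScram MCE and Diff groups last. The libraries of the MCE and Diff stages overlapped within each line.

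Among the repressors, Per2 encodes the period protein that scaffolds the repressor complex. In shScram cells it was at 1.75 and 2.85 TPM at Pre, 5.82 and 6.49 TPM at MCE and 11.4 and 12.3 TPM at Diff. The shFto libraries were at 4.83 and 5.20 TPM, 5.06 and 6.06 TPM, and 12.2 and 12.1 TPM. Both lines thus ended alike, and their libraries overlapped at the MCE and Diff stages but not at Pre.

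Per3 encodes a period protein that is thought to be dispensable for rhythms. It was at 5.72 and 6.47 TPM in shScram against 4.24 and 6.05 TPM in shFto preadipocytes. At MCE it was at 1.54 and 1.46 TPM in shScram cells and at 0.459 and 0.641 TPM in shFto cells, the lowest value of any of the 10 genes. At Diff it was back at 6.30 and 5.69 TPM in shScram cells and at 7.35 and 7.16 TPM in shFto cells. The lines did not overlap at the MCE and Diff stages. The MCE libraries of either line lay below all others.

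Cry1, which encodes a strong repressor of CLOCK and BMAL1, lay between 7.72 and 16.0 TPM. Its highest means were 13.9 ± 3.01 TPM (SD, n = 2) in shScram and 12.4 ± 0.153 TPM (SD, n = 2) in shFto preadipocytes, which overlapped. Cry2, the gene of the second cryptochrome, was at 8.92 and 16.0 TPM in shScram against 27.2 and 29.5 TPM in shFto preadipocytes. At MCE it was at 13.9 and 13.7 TPM in shScram against 13.9 and 12.8 TPM in shFto cells. At Diff it was at 19.7 and 19.8 TPM against 22.5 and 25.8 TPM. The lines were far apart before induction, overlapped at MCE and were separate again, by little, at Diff.

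In the nuclear receptor loop, Nr1d1 was at 6.41 and 8.31 TPM in shScram preadipocytes and at 24.2 and 26.1 TPM in shFto preadipocytes. At MCE the order was turned, with 18.2 and 12.5 TPM in shScram cells and 3.29 and 4.25 TPM in shFto cells. At Diff shScram cells were at 8.18 and 6.11 TPM and shFto cells at 23.2 and 26.4 TPM. Within each line the Diff libraries overlapped those before induction, while the lines overlapped at no stage. Thra, the thyroid hormone receptor gene on the other strand, was at 77.5 and 73.3 TPM in shFto against 124.8 and 128.4 TPM in shScram cells at MCE. At Diff Thra was at 120.3 and 127.5 TPM in shFto and 172.0 and 154.0 TPM in shScram cells, whereas Nr1d1 was higher in the former. The difference of Thra between the lines passed at neither stage (adjusted p = 0.184 and 0.470). Thra did rise from Pre to MCE in shScram cells (log2 difference 1.26, adjusted p = 0.0182), the step in which Nr1d1 rose there as well.

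Nr1d2 was at 22.0 and 14.8 TPM in shScram against 18.8 and 24.4 TPM in shFto preadipocytes. At MCE it was at 10.5 and 8.48 TPM against 2.98 and 2.80 TPM, and at Diff at 9.75 and 9.47 TPM against 15.7 and 17.4 TPM. The lines overlapped only before induction. In shScram cells Nr1d2 was low at both later stages, while in shFto cells it was low at MCE alone.

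Of the outputs, Dbp encodes a PAR bZIP factor whose transcript follows the activity of CLOCK and BMAL1 closely. It was at 14.8 and 25.8 TPM in shScram against 32.0 and 30.6 TPM in shFto preadipocytes. At MCE shScram cells were at 8.34 and 6.76 TPM and shFto cells at 2.26 and 2.11 TPM, and at Diff shScram cells were at 11.2 and 11.4 TPM and shFto cells at 32.0 and 28.8 TPM. The lines overlapped at no stage, and of all neighbours in the order only shFto Pre and shFto Diff overlapped. Sphk2, the sphingosine kinase gene that overlaps Dbp, lay between 18.1 and 21.8 TPM in the 4 MCE libraries and between 17.9 and 24.0 TPM in the 4 Diff libraries, where Dbp differed several-fold. Before induction, however, Sphk2 was at 7.74 and 19.3 TPM in shScram cells and at 29.8 and 32.8 TPM after knockdown, and it passed the test described below (log2 difference 1.28, adjusted p = 0.0203).

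Bhlhe40 was at 53.9 and 69.6 TPM in shScram preadipocytes, at 50.1 and 51.4 TPM at MCE and at 32.0 and 33.9 TPM at Diff. In shFto cells it was at 82.3 and 88.3 TPM, 138.1 and 149.7 TPM, and 73.1 and 84.6 TPM. Every shFto library lay above every shScram library. The shFto libraries of the Pre and Diff stages overlapped, and no other neighbours in the order did.

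The effect of the knockdown at each stage was tested by limma on log2(TPM + 1), a scale on which changes of weakly expressed genes come out too small. All 10 clock genes were among the 15968 genes that reached 1 TPM in 2 libraries or more, and a gene was called at a Benjamini-Hochberg adjusted p under 0.05 over these genes. Folds below are ratios of mean TPM, and log2 differences are those of the test.

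Before induction, shFto preadipocytes held more Nr1d1, Cry2, Per2 and Bhlhe40 RNA than shScram preadipocytes. These 4 of 10 clock genes were called higher and 0 were called lower, while 15.9% of all genes tested were higher and 12.3% lower. At an unadjusted p under 0.05, 5 clock genes were higher and 0 lower. Nr1d1 was 3.41-fold higher (log2 difference 1.65, SE 0.22, adjusted p = 0.00163), and Cry2 was 2.28-fold higher (1.18, SE 0.22, adjusted p = 0.00734). Per2 was 2.18-fold higher (0.88, SE 0.18, adjusted p = 0.0104). Bhlhe40, at 1.38-fold, was close to the threshold (0.47, SE 0.14, adjusted p = 0.0395). Dbp was at 1.54-fold but missed it (0.65, SE 0.23, adjusted p = 0.0585). The 95% confidence intervals of Clock (-0.95 to 0.19), Arntl (-0.16 to 0.55), Per3 (-0.62 to 0.18), Cry1 (-0.53 to 0.25) and Nr1d2 (-0.23 to 0.70) held 0. The median log2 difference was 0.35 over the clock genes and 0.08 over all genes.

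These calls rested on few libraries. When the fit held only the 4 preadipocyte libraries, 0 clock genes were called (adjusted p from 0.157 for Nr1d1 to 0.328 for Bhlhe40). Without replicate 1 or 2 of shFto at Pre, Per2 had an adjusted p of 0.0563 or 0.0614, and without the second of these Cry2 had 0.0512. The call of Bhlhe40 was lost without any 1 of 11 libraries, with adjusted p from 0.0563 to 0.157, and was kept only without replicate 2 of shScram at Pre. Without that library the only shScram library left at Pre was replicate 1, and the log2 difference was 1.03 for Dbp and -0.79 for Clock. Without replicate 1 instead, Dbp was at 0.27 and Clock at 0.03. Without replicate 1 of shScram at Pre, the library with the high mitochondrial share, Nr1d1, Cry2 and Per2 remained called. The markers of cycling cells summed to 251 to 289.6 TPM in shScram and to 196 to 211 TPM in shFto preadipocytes, and their part in these differences was not tested.

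At MCE Nr1d1, Nr1d2, Dbp and Per3 were lower in shFto cells and Bhlhe40 was higher. Of 10 clock genes 4 were called lower, against 7.26% of all genes, and 1 was called higher, against 10.5% of all genes. Nr1d1 was at 24.5% of its shScram mean (log2 difference -1.77, SE 0.22, adjusted p = 0.000848) and Nr1d2 at 30.6% (-1.42, SE 0.21, adjusted p = 0.00186). Dbp was at 28.9% (-1.42, SE 0.23, adjusted p = 0.00301). Per3 was at 36.6%, but both lines were near 1 TPM (-0.69, SE 0.18, adjusted p = 0.0259). Bhlhe40 was 2.83-fold higher (1.48, SE 0.14, adjusted p = 0.000196). Clock, Arntl, Per2, Cry1 and Cry2 did not pass, with log2 differences from -0.13 to 0.36. The interval of Cry2, -0.55 to 0.45, and that of Per2, -0.54 to 0.28, show how far the knockdown could have moved them unseen. The median log2 difference was -0.09 over the clock genes and 0.05 over all genes.

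The calls of Nr1d1, Nr1d2, Dbp and Bhlhe40 held in all 20 alternative fits. That of Per3 was lost without any 1 of the 4 MCE libraries, with adjusted p of 0.121 and 0.105 without replicates 1 and 2 of shScram and of 0.171 and 0.0872 without those of shFto. Without either replicate of shScram at Pre, Cry1 (0.36) passed with adjusted p of 0.0449 and 0.045. A list of 6 glucocorticoid-responsive genes (1 called higher and 3 lower in shFto cells at MCE) summed to 1131 to 1188 TPM in shScram against 427 to 434 TPM in shFto cells at this stage. Before induction its sum was 264 to 305 TPM in shScram against 276 to 291 TPM in shFto cells. The lower sum at MCE came mainly from Tsc22d3 and Fkbp5. Zbtb16 had a lower mean in shFto cells at MCE as well, while Sgk1, Klf9 and the clock gene Per1 had higher means. The sum of 5 markers of cycling cells was 713 to 769 TPM in shScram against 562 to 588 TPM in shFto cells at MCE. Of the 8 adipocyte markers 5 were called lower and 1 higher in shFto cells, with sums of 374 to 376 TPM in shScram and of 266 to 274 TPM in shFto cells, and Fabp4 was at 210.8 and 231 TPM against 44.1 and 52.7 TPM. The part of these in the clock gene differences was not tested.

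At Diff Nr1d1, Dbp, Bhlhe40 and Nr1d2 were all higher in shFto cells. These 4 of 10 were called higher, against 11.9% of all genes, and 0 were called lower, against 9.31% of all genes. At an unadjusted p under 0.05 the counts were also 4 and 0. Nr1d1 was 3.47-fold higher (log2 difference 1.67, SE 0.22, adjusted p = 0.000906) and Dbp 2.69-fold higher (1.35, SE 0.23, adjusted p = 0.00318). Bhlhe40 was 2.39-fold higher (1.23, SE 0.14, adjusted p = 0.00045) and Nr1d2 1.72-fold higher (0.72, SE 0.21, adjusted p = 0.0361). Arntl did not pass (0.35, 95% confidence interval -0.01 to 0.70). The other log2 differences that did not pass ran from -0.21 for Clock to 0.27 for Cry2. The median was 0.31 over the clock genes and 0.03 over all genes.

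The call of Nr1d2 was lost without any of 6 libraries, namely both of shFto at MCE (adjusted p = 0.0620 for each), replicates 1 and 2 of shScram at Diff (0.131 and 0.154) and replicates 1 and 2 of shFto at Diff (0.108 and 0.186). It was also lost with no filter (0.118) and with quantile normalization (0.70, adjusted p = 0.0704). Without replicate 1 of shScram at Diff, the library with conflicting labels, Nr1d1, Dbp and Bhlhe40 remained called. Without either replicate of shScram at Pre, Arntl (adjusted p = 0.0431 and 0.0423) and Cry2 (0.0434 and 0.0445) passed. At this stage the glucocorticoid-responsive list summed to 1635 to 1702 TPM in shScram against 992 to 1008 TPM in shFto cells, but 2 of its 6 genes were called higher and 2 lower in the latter. The lower sum came from Tsc22d3 and Fkbp5, while Sgk1, Zbtb16, Klf9 and Per1 had higher means in shFto cells. Of the 8 adipocyte markers 6 were called lower in shFto cells at Diff, with Adipoq at 77.2 and 72.4 TPM in shScram against 6.05 and 3.66 TPM in shFto cells. Of 5 markers of cycling cells 4 were called higher in shFto cells, with sums of 234 to 257 TPM against 145 to 154 TPM. The part of any of these in the clock gene differences was not tested.

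**Figure D2:**
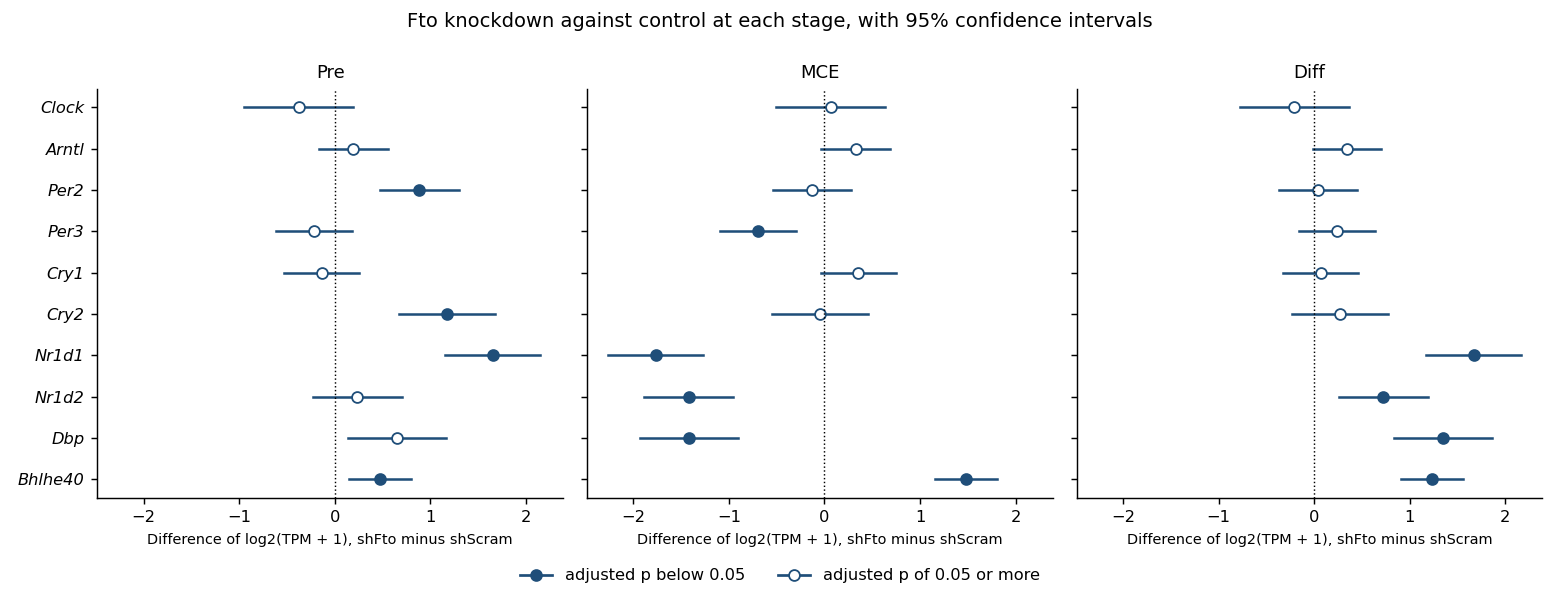
Difference of log2(TPM + 1) between shFto and shScram cells (x axis) for the 10 clock genes (y axis) at the Pre, MCE and Diff stages (panels), with 95% confidence intervals from the limma fit. Filled circles have an adjusted p below 0.05: Nr1d1 was at 1.65, -1.77 and 1.67 at the successive stages, Dbp at 0.65, -1.42 and 1.35, and Bhlhe40 at 0.47, 1.48 and 1.23.

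Whether the effect of the knockdown differed between stages was tested by interaction contrasts in the same fit. Between Pre and MCE, 4 of 10 clock genes passed, against 5.11% of all genes tested. The effect on Nr1d1 turned from higher to lower, a difference of effects of -3.42 (SE 0.31, adjusted p = 0.000872), and those on Dbp (-2.07, SE 0.32, adjusted p = 0.00863) and Nr1d2 (-1.66, SE 0.29, adjusted p = 0.0157) moved the same way. The effect on Bhlhe40 was larger at MCE, by 1.01 (SE 0.20, adjusted p = 0.0257). Cry2 (-1.22, adjusted p = 0.0618) and Per2 (-1.01, adjusted p = 0.0598), which had been called before induction and at no later stage, missed the threshold. Their result depended on the scaling and on the shScram libraries at Pre. With median-ratio scaling Cry2 (adjusted p = 0.0312) and Per2 (0.0428) passed in the limma fit, as they did with quantile normalization (0.0204 and 0.0436). Each of them passed in 4 of 20 alternative fits. The rest of these fits left out replicate 1 (Cry2 -0.83, Per2 -0.77) or replicate 2 (Cry2 -1.61, Per2 -1.26) of shScram at Pre. Between MCE and Diff, 3 of 10 passed, against 2.49% of all genes. The effect on Nr1d1 turned back by 3.44 (SE 0.31, adjusted p = 0.00143), that on Dbp by 2.77 (SE 0.32, adjusted p = 0.00306) and that on Nr1d2 by 2.14 (SE 0.29, adjusted p = 0.00662). Per3 followed with 0.93 (adjusted p = 0.0965). Between Pre and Diff, 0 of 10 passed by limma, against 7.67% of all genes, and 3 had an unadjusted p under 0.05. For Nr1d1 the effects of these stages differed by 0.02, with a 95% confidence interval from -0.69 to 0.72.

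The calls of Nr1d1 and Dbp between Pre and MCE were kept without any single library. That of Nr1d2 was lost without replicate 2 of shFto at Pre (adjusted p = 0.0713), replicate 1 of shScram at MCE (0.0732) or replicates 1 and 2 of shFto at MCE (0.0680 and 0.0779). That of Bhlhe40 was lost without either shFto library at Pre (0.109 and 0.0790), any library at MCE (0.0929 to 0.123) or either shScram library at Diff (0.0526 and 0.0528). Without replicate 1 of shScram at Pre, 7 clock genes passed between Pre and MCE and 3 between Pre and Diff, Cry2 (-0.51), Dbp (1.08) and Bhlhe40 (0.94). Without replicate 2 there were 7 and 5, the latter being Clock (0.58), Per2 (-1.09), Cry2 (-1.29), Nr1d2 (0.76) and Bhlhe40 (0.58). Without either of these libraries Per3 passed between MCE and Diff (adjusted p = 0.0277 and 0.0274).

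Averaged over the 3 stages, 4 of 10 clock genes were higher in shFto cells, against 24.5% of all genes, and 0 were lower, against 18.3% of all genes. At an unadjusted p under 0.05, 5 were higher and 0 lower. Bhlhe40 was the only one of them called higher at every stage (mean log2 difference 1.06, SE 0.08, adjusted p = 2.14e-05). Arntl passed only here (0.29, SE 0.09, adjusted p = 0.0317), as the mean of stage effects of 0.20, 0.33 and 0.35. Nr1d1 (0.52, adjusted p = 0.0107) and Cry2 (0.47, adjusted p = 0.0175) passed too, although for Nr1d1 the mean covers effects of opposite sign. The call of Arntl was lost with no filter (0.29, adjusted p = 0.0811), with median-ratio scaling (0.24, 0.0803), with quantile normalization (0.19, 0.187) and without any 1 of 7 libraries: replicates 1 and 2 of shFto at Pre (0.0695 and 0.0693), replicate 2 of shScram at MCE (0.0824), replicates 1 and 2 of shFto at MCE (0.0711 and 0.0795), replicate 1 of shScram at Diff (0.0856) and replicate 2 of shFto at Diff (0.0921). The call of Cry2 was lost without replicate 1 of shFto at MCE (0.0505) or replicate 2 of shFto at Diff (0.0530). Without replicate 2 of shScram at Pre, 8 clock genes passed, including Clock (-0.31) and Nr1d2 (-0.24) as lower. Per3, not called above, passed as lower with a pseudocount of 0.1 (-0.43, adjusted p = 0.0346). It also did so with median-ratio scaling (-0.27, adjusted p = 0.0434) and with quantile normalization (-0.28, adjusted p = 0.0413). Without replicate 2 of shFto at Pre, Per3 was at -0.30.

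The steps between stages were compared within each line, the same MCE libraries serving both steps. From Pre to MCE in shScram cells, Per2 and Nr1d1 rose and Arntl, Per3, Cry1, Nr1d2 and Dbp fell. These are 2 of 10 higher, against 12.2% of all genes, and 5 of 10 lower, against 26.9% of all genes. Per2 rose 2.67-fold (log2 difference 1.13, SE 0.18, adjusted p = 0.0016) and Nr1d1 2.09-fold (0.96, SE 0.22, adjusted p = 0.00918). Per3 fell to 24.6% (-1.50, SE 0.18, adjusted p = 0.000288), Dbp to 37.2% (-1.27, SE 0.23, adjusted p = 0.00272) and Nr1d2 to 51.4% (-0.87, SE 0.21, adjusted p = 0.0105). Cry1 fell to 60.4% (-0.65, SE 0.17, adjusted p = 0.0166) and Arntl to 65.2% (-0.58, SE 0.16, adjusted p = 0.0186). The median was -0.42 over the clock genes and -0.17 over all genes.

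When the fit held only the 4 libraries of this step, 0 clock genes were called (adjusted p from 0.0583 for Per3 to 0.228 for Cry1). Without replicate 1 of shScram at MCE the adjusted p was 0.0668 for Nr1d1 and 0.0967 for Cry1, and without replicate 2 it was 0.0798 for Nr1d2 and 0.115 for Arntl. Without replicate 1 of shScram at Pre, Bhlhe40 passed as lower (-0.45, adjusted p = 0.00544), and without replicate 2 Clock (-0.63, adjusted p = 0.00681) and Cry2 (0.58, adjusted p = 0.00182) passed. With median-ratio scaling, under which the median of all genes in this step moved by 0.17, Arntl (-0.37, adjusted p = 0.119) and Cry1 (-0.45, adjusted p = 0.0537) no longer passed. With quantile normalization Arntl (-0.44, adjusted p = 0.0935) and Nr1d2 (-0.69, adjusted p = 0.0529) no longer did, nor Arntl with no filter (adjusted p = 0.0555).

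The same step in shFto cells was steeper for Dbp and Nr1d2, and Nr1d1 fell where it had risen in shScram cells. Of the clock genes 5 of 10 fell, against 19.9% of all genes, and 1 rose, against 8.80% of all genes. Dbp fell to 6.96% of its mean at Pre (-3.35, SE 0.23, adjusted p = 1.41e-05), Nr1d2 to 13.4% (-2.53, SE 0.21, adjusted p = 4.08e-05) and Nr1d1 to 15.0% (-2.46, SE 0.22, adjusted p = 6.93e-05). Per3 fell to 10.7% (-1.97, SE 0.18, adjusted p = 6.82e-05) and Cry2 to 47.1% (-1.03, SE 0.22, adjusted p = 0.00784). Bhlhe40 rose 1.69-fold (0.75, SE 0.14, adjusted p = 0.00441). The interaction between Pre and MCE given above is also the test of the difference between the lines in this step, and it passed for Nr1d1, Nr1d2, Dbp and Bhlhe40 but not for Per3 (-0.47, adjusted p = 0.286). Nr1d1 thus moved in opposite directions in the lines, whereas Nr1d2 and Dbp fell in both. The call of Cry2 was lost without replicate 2 of shFto at Pre (adjusted p = 0.0583) or at MCE (0.0591), and without replicate 1 or 2 of shScram at Pre Arntl (-0.45) passed with 0.0111 or 0.0109. The median was -0.74 over the clock genes and -0.18 over all genes.

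From MCE to Diff in shScram cells, Per2 and Per3 rose while Nr1d1 and Bhlhe40 fell. These are 2 of 10 higher, against 20.0% of all genes, and 2 of 10 lower, against 5.22% of all genes. Per3 rose 3.99-fold (1.48, SE 0.18, adjusted p = 0.000709) and Per2 1.92-fold (0.84, SE 0.18, adjusted p = 0.0106). Nr1d1 fell to 46.5% (-0.997, SE 0.22, adjusted p = 0.0118) and Bhlhe40 to 64.9% (-0.61, SE 0.14, adjusted p = 0.0151). Without replicate 1 of shScram at MCE or replicate 2 at Diff, Per3 alone remained called, with adjusted p of 0.0623 and 0.0749 for Per2 and 0.0780 and 0.0947 for Nr1d1. Bhlhe40 had 0.0621 and 0.0673 in these fits and 0.0922 and 0.0848 without replicate 2 of shScram at MCE and replicate 1 at Diff. Without replicate 1 or 2 of shScram at Pre, Cry2 (0.49, adjusted p = 0.00247 and 0.00257), Dbp (0.53, adjusted p = 0.00384 and 0.00397) and Clock (0.37, adjusted p = 0.0462 and 0.0448) passed as well. With only the 4 libraries of this step in the fit, Cry2 (0.49, adjusted p = 0.0184) and Dbp (0.53, adjusted p = 0.0401) passed too. Per2, Per3, Nr1d1 and Bhlhe40 stayed called in that fit. The median was 0.24 over the clock genes and 0.23 over all genes.

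In shFto cells 6 of 10 rose in this step, against 20.2% of all genes, and 1 fell, against 6.48% of all genes. Dbp rose 13.9-fold (3.30, SE 0.23, adjusted p = 4.81e-05), Per3 13.2-fold (2.42, SE 0.18, adjusted p = 5.79e-05), Nr1d1 6.58-fold (2.44, SE 0.22, adjusted p = 0.000158) and Nr1d2 5.72-fold (2.17, SE 0.21, adjusted p = 0.000198). Per2 rose 2.19-fold (1.01, SE 0.18, adjusted p = 0.00411) and Cry2 1.81-fold (0.81, SE 0.22, adjusted p = 0.0263). D930015M05Rik, the noncoding gene that shares exonic bases with Cry2, rose in this step as well (1.16, adjusted p = 0.00591). It was at 0.112 and 0.075 TPM at MCE and at 1.26 and 1.64 TPM at Diff. Bhlhe40 fell to 54.8% (-0.86, SE 0.14, adjusted p = 0.00279). The call of Cry2 was lost without any 1 of the 4 libraries of this step, with adjusted p of 0.0938 and 0.138 without replicates 1 and 2 at MCE and of 0.0750 and 0.149 without those at Diff. The median was 0.91 over the clock genes and 0.17 over all genes.

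**Figure D3:**
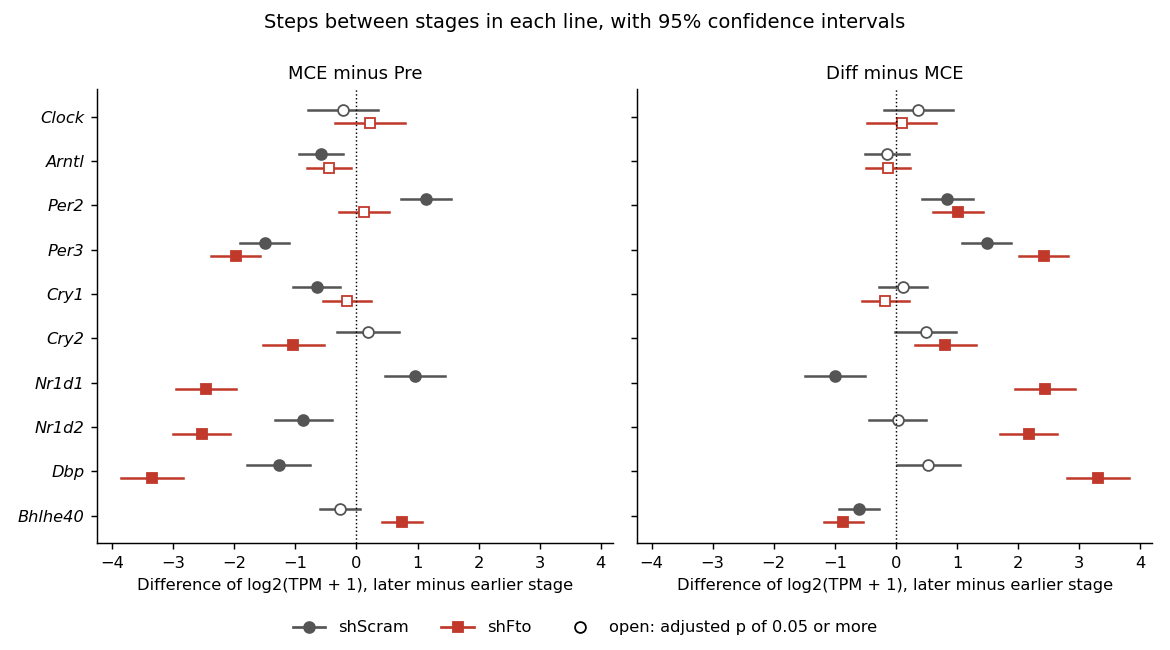
Difference of log2(TPM + 1) from Pre to MCE (left) and from MCE to Diff (right) on the x axis for the 10 clock genes (y axis) in shScram (grey circles) and shFto cells (red squares), with 95% confidence intervals from the limma fit. Open symbols have an adjusted p of 0.05 or more. Dbp fell by 1.27 in shScram and by 3.35 in shFto cells in the first step, and Nr1d1 was at 0.96 and -2.46.

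In the limma fit of all 12 libraries Clock was called in none of these comparisons, and none gave it an unadjusted p under 0.05. Arntl, in contrast, was called in the first step of shScram cells and in the averaged effect of the knockdown.

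The course of Dbp over the 12 libraries was shared most closely by Septin8 (Pearson r = 0.959), the gene of a septin of the cytoskeleton, Psrc1 (0.955), the gene of a spindle-associated protein, and Gstt1 (0.954), the gene of a glutathione transferase. These are the highest correlations of log2(TPM + 1) among the 10800 genes with a mean TPM of 5 or more, the 12 libraries being 6 pairs of replicates, so that the values are descriptions. Gstt1 lay between 12.2 and 21.2 TPM in preadipocytes, at 6.42 and 5.35 TPM in shScram against 2.95 and 3.71 TPM in shFto cells at MCE, and between 10.5 and 13.3 TPM at Diff. Like Dbp it was lowest in shFto cells at MCE. Nr1d2 took place 12 in this order (r = 0.930) and Nr1d1 place 417 (0.769). Per3 had an r of 0.888 with Dbp, but its mean of 4.42 TPM kept it out of the order. The course of Arntl was shared most closely by Cdc42se2 (0.967), the gene of a small CDC42 effector, Nup107 (0.964), the gene of a nuclear pore protein, and E2f6 (0.958), the gene of a repressive E2F factor. None of the other clock genes came near, Cry1 being the closest at place 822 (r = 0.717).

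A wider list of 20 genes that act in or on the clock was examined beside the 10, and 18 of them were tested, since Npas2 and Rorb did not reach 1 TPM in 2 libraries. At Pre 4 of the 18 were higher and 0 lower in shFto cells (6 had an unadjusted p under 0.05), beside 15.9% and 12.3% of all genes. At MCE 4 were higher and 1 lower, beside 10.5% and 7.26%, and at Diff 6 were higher and 1 lower, beside 11.9% and 9.31%. In shScram cells 3 rose and 5 fell from Pre to MCE, close to the 12.2% and 26.9% of all genes, and 6 rose and 2 fell from MCE to Diff, beside 20.0% and 5.22%. In shFto cells 3 rose and 1 fell in the first step, beside 8.80% and 19.9%, and 5 rose and 1 fell in the second, beside 20.2% and 6.48%. By the interaction contrasts 1 of the 18 passed between Pre and MCE, 2 between Pre and Diff and 1 between MCE and Diff. The shares of all genes were 5.11%, 7.67% and 2.49%, so the wider list stayed close to them. Of the genes of this list with the largest called change, 7 follow by role.

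Tef and Hlf encode the PAR bZIP relatives of DBP, and Nfil3 encodes their competitor at the D-box. Tef was at 25.4 and 20.8 TPM in shScram against 6.70 and 7.92 TPM in shFto cells at MCE, and at 52.7 and 54.7 TPM against 36.2 and 33.3 TPM at Diff. Its low point at MCE in shFto cells was that of Dbp (log2 difference -1.54, SE 0.19, adjusted p = 0.000885), but at Diff it lay below shScram cells, short of the threshold (-0.62, adjusted p = 0.0520). Nfil3 was at 54.5 and 61.6 TPM in shScram against 99.8 and 100.9 TPM in shFto cells at MCE. Nfil3 was higher in shFto cells at Pre (0.64, adjusted p = 0.0156), MCE (0.78, adjusted p = 0.0069) and Diff (0.93, adjusted p = 0.00239), as Bhlhe40 was. Hlf passed the filter only through shFto cells at Diff, where it was at 1.76 and 1.25 TPM, and it did not exceed 0.577 TPM elsewhere, so that its place among the genes counted higher there was set by the filter.

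Rora encodes a nuclear receptor that activates Arntl at the ROR elements where REV-ERBs repress it. Rora was at 1.04 and 1.09 TPM in shScram against 3.86 and 3.30 TPM in shFto cells at MCE, and at 1.81 and 1.56 TPM against 5.68 and 5.39 TPM at Diff. It was higher in shFto cells at all 3 stages (0.63, 1.15 and 1.28, adjusted p = 0.0257, 0.00198 and 0.000893).

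Per1, the period gene that glucocorticoids induce directly, was at 10.7 and 27.6 TPM in shScram preadipocytes and at 46.1 and 47.9 TPM at MCE (1.39, SE 0.32, adjusted p = 0.00963). In shFto cells it was at 26.4 and 26.6 TPM, then at 60.6 and 57.0 TPM (1.12, SE 0.32, adjusted p = 0.0295). Per1 thus rose with induction in both lines, while Per3 fell in both. Timeless, better known for its part at replication forks, was at 6.59 and 6.19 TPM in shScram against 20.9 and 19.5 TPM in shFto cells at Diff (1.52, SE 0.17, adjusted p = 0.000376). Usp2, which encodes a deubiquitinase of clock proteins, rose from MCE to Diff in both lines (0.83 and 1.34, adjusted p = 0.0128 and 0.00124).

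**Figure D4:**
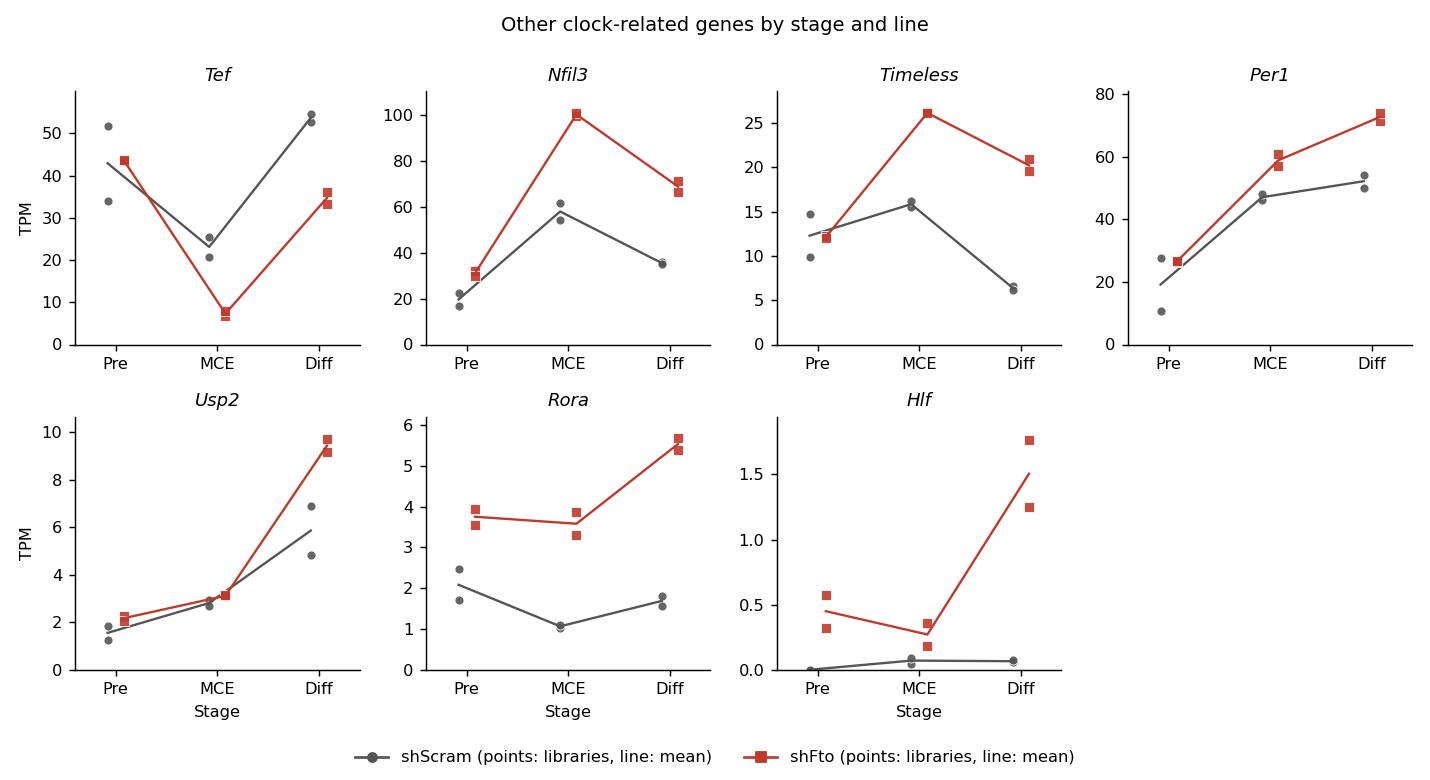
TPM (y axis, linear from 0, a scale of its own in each panel) at the Pre, MCE and Diff stages (x axis) of 7 further clock-related genes with large called changes, in shScram (grey circles) and shFto cells (red squares). Points are libraries, 2 per group, and lines join the group means. Tef was lowest in shFto cells at MCE, at 6.70 and 7.92 TPM, and Rora and Nfil3 lay higher in shFto than in shScram cells at each stage.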

How the data were processed

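Libraries of 3T3-L1 cells were grouped by title into line and stage. The authors trimmed reads (Trim Galore 0.6.5), aligned them to GRCm38 (HISAT2 2.1.0) and quantified them with StringTie 2.1.4; the table they deposited holds TPM. Their DESeq2 test on counts was not repeated, because the unit used here was TPM. Depth per library is unknown from TPM, and 2 libraries per group limit the precision.

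Genes that reached 1 TPM in 2 or more of the 12 libraries were tested on log2(TPM + 1) with limma 3.58.1 in R 4.3.3 (group-means model, trended eBayes, 6 residual degrees of freedom), two-sided, with Benjamini-Hochberg adjustment over 15968 genes. The script was checked on simulated data. Tables and figures were made with Python 3.11.15, numpy 2.4.6 and pandas 2.3.3. Coordinates came from GENCODE M21 and promoters from RefSeq; the E-prime box was added after the other motifs had been searched.

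The members and the lists were chosen with earlier results of these data known. Named were the 10 members, the 8 genes of the wider list with the largest called change in a comparison of lines or successive stages (1 of them is not reported here), the 3 genes most like Dbp and most like Arntl, and Fto. Genes sharing exonic bases with members were named later. Alternatives were another pseudocount, filter, scaling, choice of libraries, robust variances, the replicate number as a block and each library left out. The values gave little sign that the replicate numbers pair the samples, which does not exclude a pairing. Deviations of same-numbered libraries from their group means correlated over 0.1 in 2 of 15 pairs of groups (-0.29 to 0.17). No libraries held identical values.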

Additional observations from a re-analysis of the deposited data

Results flagged for a closer look

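The effect of the knockdown on 4 clock genes differed between stages by an interaction test, as limma adjusted p-values in the report show. From Pre to MCE the effect on log2(TPM + 1) changed by -3.42 for Nr1d1, by -2.07 for Dbp, by -1.66 for Nr1d2 and by 1.01 for Bhlhe40. These changes passed in 20, 19, 14 and 10 of 20 alternative fits, in the same order. From MCE to Diff it changed by 3.44 for Nr1d1, by 2.77 for Dbp and by 2.14 for Nr1d2. For Nr1d1 the libraries of the lines were separate at every stage and stood in the opposite order at MCE. For Dbp they were separate at every stage, and for Nr1d2 at MCE and Diff.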

How the results depend on the processing

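Over the 20 alternative settings, the called log2 differences of clock genes between lines at a stage or between successive stages stayed called in 669 cases, lost the call in 66 and reversed in 0. Cases that did not pass stayed so in 616, passed in 22 and changed sign in 20. When each library was left out in turn, the number of clock genes called between the lines ranged from 1 to 6 at Pre, 4 to 6 at MCE, 3 to 6 at Diff and 2 to 8 for the average. It ranged from 5 to 9 and 1 to 7 for the first and second steps of shScram cells, 5 to 7 and 6 to 7 for those of shFto cells, and 2 to 7, 0 to 5 and 3 to 4 for the interactions MCE minus Pre, Diff minus Pre and Diff minus MCE. A pair with a library left out adds nothing to the estimate of the spread, which the shScram pair at Pre otherwise widens. With only the libraries of the contrast, 0 clock genes were called at Pre, 0 in the first shScram step and 1 (Nr1d1) for MCE minus Pre. That setting also added calls: Cry2 and Dbp in the second shScram step, Arntl in the first shFto step and Per3 for Diff minus MCE. With no filter the average had 2 and MCE minus Pre had 2. For Diff minus Pre, median-ratio scaling and quantile normalization each gave 1, Bhlhe40. For MCE minus Pre, both of these scalings added calls of Cry2 and Per2. The cause was not tested. With no filter, the adjusted p also rose past 0.05 for Bhlhe40 at Pre (0.112), Per3 at MCE (0.0557), Nr1d1 in the second shScram step (0.0528), Cry2 in the second shFto step (0.111) and in the average (0.0793), and Nr1d2 (0.0612) and Bhlhe40 (0.0679) for MCE minus Pre, and with quantile normalization for Bhlhe40 at Pre (0.0504). With a mean TPM of 5 or more, Per3 was left out.

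Same-numbered replicates showed little tendency to deviate together. With the replicate number as a block, Diff minus Pre had 1 call (Bhlhe40), Nr1d2 at Diff had an adjusted p of 0.0529, and no other call of a clock gene changed.

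Log2 differences that changed sign had not passed in the fit of all libraries. With a library left out, those between the lines at Pre ranged from -0.79 to 0.034 for Clock (above 0 without shScram replicate 1), from -0.35 to 0.071 for Cry1 and from -0.036 to 0.51 for Nr1d2 (both without shScram replicate 2). At MCE they ranged from -0.073 to 0.20 for Clock (without shScram replicate 2) and from -0.10 to 0.0096 for Cry2 (without shFto replicate 2), and at Diff from -0.010 to 0.089 for Per2 (without shScram replicate 1). In the first shScram step they ranged from -0.63 to 0.19 for Clock and from -0.20 to 0.58 for Cry2 (both without replicate 1 at Pre), and in the second from -0.30 to 0.017 for Arntl (without replicate 1 at Diff) and from -0.11 to 0.16 for Nr1d2 (without replicate 2 at MCE). With quantile normalization Clock at MCE was at -0.040 and Per2 at Diff at -0.013. With median-ratio scaling and quantile normalization, Cry1 and Nr1d2 in the second shScram step were at -0.13 and -0.17 and at -0.22 and -0.27, Cry1 in the first shFto step at 0.060 and 0.070, and Clock in the second at -0.11 and -0.067. These scalings moved the median of all genes by more than 0.1 in the steps between stages, by 0.17 and 0.13 for the first shScram step, -0.22 and -0.22 for the second, 0.19 and 0.20 for the first shFto step and -0.17 and -0.21 for the second. At Pre, quantile normalization moved it by -0.13.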
